A study of Rattus norvegicus with 7 samples.

Results

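Ribosomal protein genes, the genes for the protein subunits of the ribosomes of the cytosol and of the mitochondrion, were followed through 7 transcriptomes of differentiating rat oligodendrocyte progenitor cells. Members were taken by gene symbol, a rule set with earlier results of these data known. Symbols made of Rpl, Rps or Rplp and a number, with or without a closing a or x, gave 85 cytosolic genes, and symbols made of Mrpl or Mrps and a number gave 71 mitochondrial genes. These are 156 of the 32852 genes in the deposited table. Genes outside that spelling, such as Rpsa, Fau and Mrps18a, were kept apart as a list of their own.

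The cells came from the brains of wild-type rats at postnatal day 7. Around 40000 of them per well of a 12-well plate were given either a control siRNA (4 libraries) or one directed at the endogenous retrovirus RNLTR12-int (3 libraries), then held for 4 to 5 days in medium that promotes differentiation, per the labels' protocols. All 7 cultures received an siRNA with the same lipid reagent, and no untransfected culture was analysed here. The labels call the libraries biological replicates without naming an animal or culture for each, so the p-values describe spread among these 7 libraries, part of which may be technical. Libraries are called control 1 to 4 and siRNLTR12-int 1 to 3 below. RNLTR12-int transcripts were not analysed here, and the strength of the knockdown is therefore unknown.

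A cytosolic ribosome is built in the nucleolus from ribosomal RNA and a fixed set of small-subunit (Rps) and large-subunit (Rpl) proteins, and it translates nuclear messages. A mitochondrial ribosome is built inside the organelle from its own RNA and from Mrps and Mrpl proteins that are encoded in the nucleus and imported. It translates only the few messages of the mitochondrial genome, which encode subunits of the respiratory chain. The messages of cytosolic ribosomal proteins are known for a 5′ end that opens with a C and a tract of pyrimidines (C or T in DNA), the terminal oligopyrimidine or TOP start, through which growth signalling by mTOR controls their translation. Myelinating glia make large amounts of protein and membrane, so both kinds of ribosome are of interest in these cells.

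A long form of that 5′ feature, as counted below, was more frequent in the cytosolic than in the mitochondrial class in the reference sequence. RefSeq promoters (build GRCr8, 250 bases before and 50 from each gene's annotated start) were matched by symbol, and 57 of the 73 cytosolic and 54 of the 71 mitochondrial symbols measured had a single entry. A stretch of at least 8 C or T bases, counted from a C within 5 bases of the start whether or not more C or T bases came before it, was present in 30 of 57 cytosolic promoters (52.6%), in 1 of 54 mitochondrial promoters (1.85%) and in 4.06% of all 33469 promoters of that length. The heptamer CCGGAAG, a core that ETS-family factors are known to bind, was found on either strand in 35.1% of cytosolic and 29.6% of mitochondrial promoters, against 8.75% of all. AAGATGGC, part of the element known for YY1, was found on either strand in 8.77%, 24.1% and 3.17%. Both motifs can overlap each other by AAG, and the first bases of the reverse complement of CCGGAAG can lie in a pyrimidine run. All 33469 promoters cover 27457 symbols, some with several entries, whereas the members counted had a single entry. Tracts shorter than 8 bases were not counted, so a promoter without the stretch may still carry a shorter tract. A match is a description of the letters only.

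The lines that follow show 30 bases before and 20 bases from the annotated start of 9 members, so that the start is base 31 of each line, 5′ to 3′ on the gene's own strand. They were picked because results below turn on them, and capitals mark the pyrimidine stretch as counted from that C. Coordinates are GRCr8, which is not the build of the expression values (Rnor_6.0). Rpl28 lies at chr1:78083513-78083562 (minus strand), Rpl34 at chr2:221962264-221962313 (minus), Rpl4 at chr8:73566447-73566496 (plus), Rplp0 at chr12:46718371-46718420 (minus), Rpl12 at chr3:36661910-36661959 (plus) and Rpl41 at chr7:1563478-1563527 (minus). Mrpl49 lies at chr1:212779308-212779357 (minus), Mrpl52 at chr15:31852906-31852955 (plus) and Mrps7 at chr10:101342612-101342661 (plus).
Rpl28: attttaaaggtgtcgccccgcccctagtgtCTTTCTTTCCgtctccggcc
Rpl34: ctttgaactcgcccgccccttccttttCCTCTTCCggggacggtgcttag
Rpl4: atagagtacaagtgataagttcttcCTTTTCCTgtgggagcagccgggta
Rplp0: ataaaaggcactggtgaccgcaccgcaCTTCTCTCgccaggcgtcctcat
Rpl12: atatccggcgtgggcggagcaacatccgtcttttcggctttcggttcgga
Rpl41: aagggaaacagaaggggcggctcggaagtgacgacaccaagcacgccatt
Mrpl49: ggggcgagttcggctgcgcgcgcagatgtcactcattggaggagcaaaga
Mrpl52: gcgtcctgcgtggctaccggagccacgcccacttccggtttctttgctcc
Mrps7: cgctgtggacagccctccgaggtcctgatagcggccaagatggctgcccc
The first 4 lines carry the stretch. In Rplp0 it begins at the capitals, while in Rpl28, Rpl34 and Rpl4 the unbroken C or T tract reaches further upstream, into the lower-case letters before them. Rpl12, Rpl41 and the 3 mitochondrial members have none that meets the rule within 5 bases of their annotated start.

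Libraries held 22523873 to 61803693 recovered reads. All 12 markers of the oligodendrocyte lineage were present, Olig1, Olig2, Sox10, Pdgfra and Mbp among them, so the labelled cell type was supported by its markers. Markers of other cells were present too. A list of 12 astrocyte markers summed to 609969 to 747201 normalised counts in 3 libraries (control 1, control 2, siRNLTR12-int 1), and to 161062 to 179134 in the other 4, with none at 0 and 10 of 12 higher in each of the 3. The 11 microglia markers found summed to 5284 to 17593 in the same 3 libraries and 1738 to 2580 in the other 4. Higher in each of the 3 were 9 of these 11, against 18.6% of all genes tested. Of 12 neuron markers 5 were lower in each of the 3 and 1 was higher, against 17.1% and 18.6%. Of 7 vascular and fibroblast markers tested, 0 were lower and 2 higher in this way. The lineage list summed to 239859 to 934923 in controls and 155257 to 263577 with the siRNA. Of its 12 markers 6 were lower without overlap, against 3.59% of all genes tested. By library, 5 of its 12 markers were lower in each of the 3 than in the other 4 and 0 were higher. Among all genes tested these shares were 17.1% and 18.6%, and the list's sum overlapped (155257 to 934923 against 246157 to 411703). These 5 were Olig1, Olig2, Nkx2-2 and the progenitor markers Pdgfra and Cspg4. Pdgfra had 13936 to 16580 normalised counts in the 3 libraries and 38097 to 53301 in the other 4, and Cspg4 had 6702 to 11394 and 20224 to 46972. The 3 libraries are called astrocyte-high below. They were marked out by the astrocyte list and not by any ribosomal protein gene, so the 10 of 12 astrocyte markers partly follow from that choice. The 3 libraries are not a group of the study.

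Of the 85 cytosolic genes, 80 reached a mean normalised count of at least 10 and were tested, 50 of the large and 30 of the small subunit, and all 71 mitochondrial genes were tested, 45 and 26. The 5 untested rows were second copies of Rps27a, Rpl21, Rps4x and Rpl39 and the only row of Rpl13. Rps27a, Rpl21 and Rpl13 in those rows were listed at 0 in every library, although Rpl13 is a constitutive subunit. In all, 9 cytosolic symbols had several rows, 20 rows together. Both rows of Rpl7a were near identical, at 2913 and 2914 normalised counts in control 1 and both at 4238 in siRNLTR12-int 3. No source used here says how reads were divided between such copies, so single rows of repeated symbols are uncertain. Processed copies of these genes are common in mammalian genomes, and levels are therefore compared here between libraries and not between genes.

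No member of either class differed detectably between the siRNA groups with all 7 libraries. With limma, 0 of 80 cytosolic and 0 of 71 mitochondrial members passed an adjusted p of 0.05, as did 0% of the 18225 genes tested. At an unadjusted p under 0.05, 0 cytosolic and 2 mitochondrial members were found, against 6.3% of all genes. Of those 2, 1 was higher and 1 lower, against 3.33% and 2.98%. EdgeR on the recovered reads called 0 members and 0% of genes, with 0 cytosolic and 2 mitochondrial members at an unadjusted p under 0.05 (6.39% of genes). DESeq2 called 0 members and 0.756% of genes, with 1 and 2 members at an unadjusted p under 0.05 (5.19%). No member passed in the authors' deposited table, where 0.752% of genes did and 1 and 2 members had an unadjusted p under 0.05 (5.19% of genes), and there the smallest adjusted p-values were 0.658 among cytosolic and 0.222 among mitochondrial members.

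Differences between the groups were small in both classes. The median log2 difference, siRNLTR12-int minus control on the log2(normalised count + 1) scale, was 0.09 for cytosolic and 0.07 for mitochondrial members, beside 0.01 for all genes tested. The cytosolic median was 0.03, 0.04, 0.14 and 0.15 with controls 1 to 4 left out in turn, and 0.22, 0.03 and 0.02 with siRNLTR12-int 1 to 3 left out. The mitochondrial median ran from 0.03 (without siRNLTR12-int 2) and 0.04 (without control 1) to 0.13 (without siRNLTR12-int 1). Positive values were found in 65 of 80 cytosolic members and 49 of 71 mitochondrial members, against 51% of all genes. Within 0.25 of 0 lay 75 of 80 and 62 of 71 members, against 64.9% of all genes. With a mean of at least 100 this held for 72 of 74 and 61 of 69 members, against 71.9% of genes. The 95% interval of a member's difference had a median half-width of 0.37 for cytosolic and 0.29 for mitochondrial members, so a change of that size in a single gene could be missed. In size, both class medians were below the medians between astrocyte-high and other libraries described next, -0.34 for cytosolic and -0.10 for mitochondrial members. The mean mitochondrial level differed by 0.066 between the siRNA groups. Its SD was 0.039 in controls (n = 4) and 0.074 with the siRNA (n = 3).

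**Figure D1:**
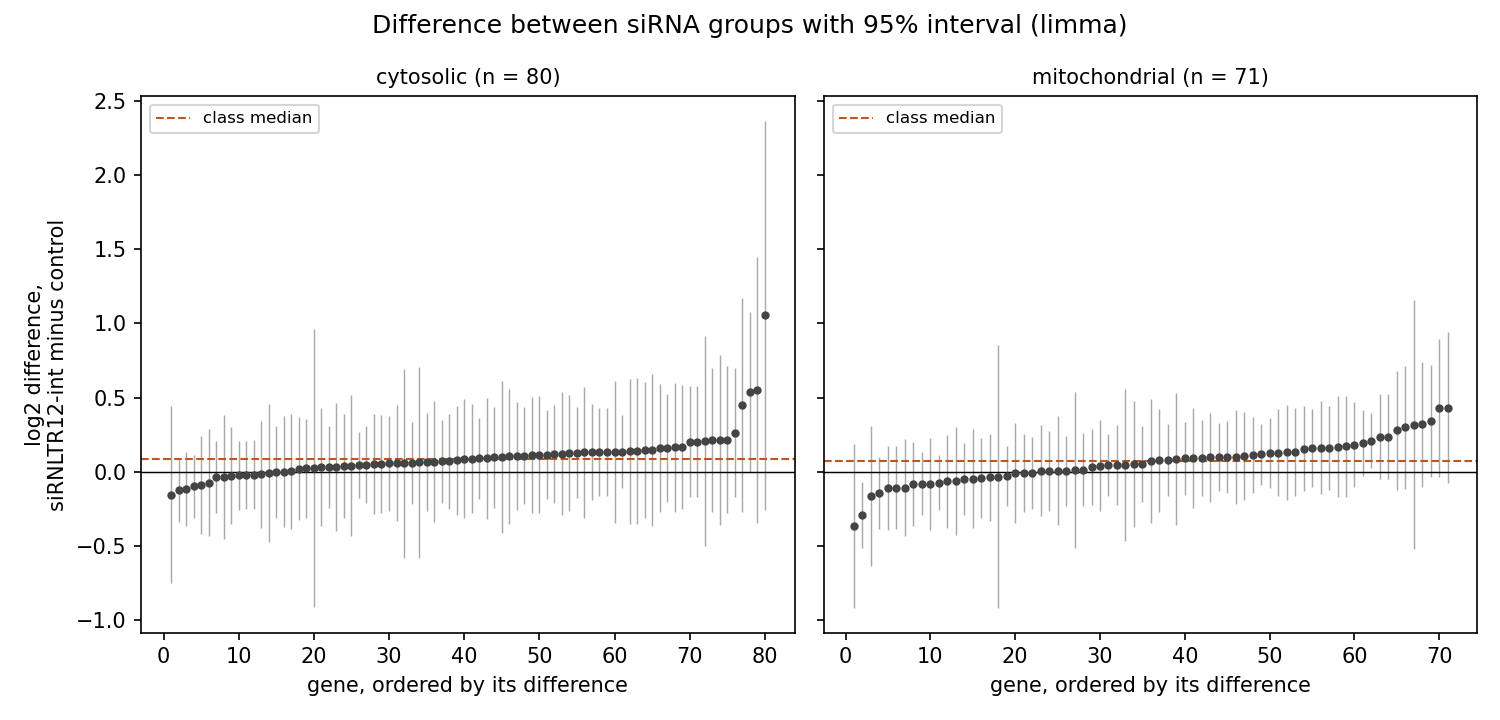
Log2 difference between siRNLTR12-int (n = 3) and control (n = 4) libraries for each tested gene, ordered by size, with its 95% interval from limma. The dashed lines are the class medians of 0.09 (cytosolic, 80 genes) and 0.07 (mitochondrial, 71 genes), and most intervals span 0.

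Cytosolic ribosomal protein transcripts instead moved together with the astrocyte-high libraries. In 64 of 80 cytosolic members all 3 astrocyte-high libraries lay below all 4 others, against 17.1% of all genes tested. The opposite order was found in 1 cytosolic member, against 18.6% of all genes. With a mean of at least 100 the counts were 64 and 1 of 74 members, against 19.9% and 19.5% of genes. The mean was lower in the astrocyte-high libraries in 78 of 80 cytosolic members, against 50.7% of all genes. Among mitochondrial members 16 of 71 were lower and 8 higher in this way. The 16 became 27 without control 4, while the cytosolic count was 64 to 68 with any 1 library left out. The median log2 difference, astrocyte-high minus the other libraries, was -0.34 for cytosolic members (a ratio of 0.790) and -0.10 for mitochondrial members (0.933), beside -0.0070 for all genes. The astrocyte, microglia and progenitor markers given above moved with the same libraries, as did some neuron and vascular markers. The part of these markers in the pattern was not tested. In bulk RNA fewer cells of a type and less RNA per cell cannot be told apart.

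The pattern was present within each siRNA group. Among controls alone, libraries 1 and 2 against 3 and 4, the median difference was -0.31 for cytosolic and -0.07 for mitochondrial members, with 75 of 80 and 46 of 71 negative. For all genes tested it was -0.0067, with 9233 of 18225 negative. Among siRNLTR12-int libraries, library 1 against 2 and 3, the medians were -0.37 and -0.12, with 78 of 80 and 46 of 71 negative. For all genes tested the median was -0.0054, with 9190 of 18225 negative. Conversely, the siRNA difference within the 4 libraries low in astrocyte markers had medians of 0.05 and 0.06, beside 0.01 for all genes. Within the 3 astrocyte-high libraries, where only 1 received the siRNA, the medians were -0.0040 and 0.01.

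Library by library the cytosolic class shifted together. In control 1, control 2 and siRNLTR12-int 1, 76, 74 and 76 of the 80 members lay below their own mean over the 7 libraries. In control 3, control 4, siRNLTR12-int 2 and siRNLTR12-int 3, 71, 72, 71 and 76 of them lay above it. Mitochondrial members were split more evenly. Of 71, 51, 39 and 44 lay below their own mean in the 3 astrocyte-high libraries, and 38, 34, 53 and 43 lay above it in the other 4.

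**Figure D2:**
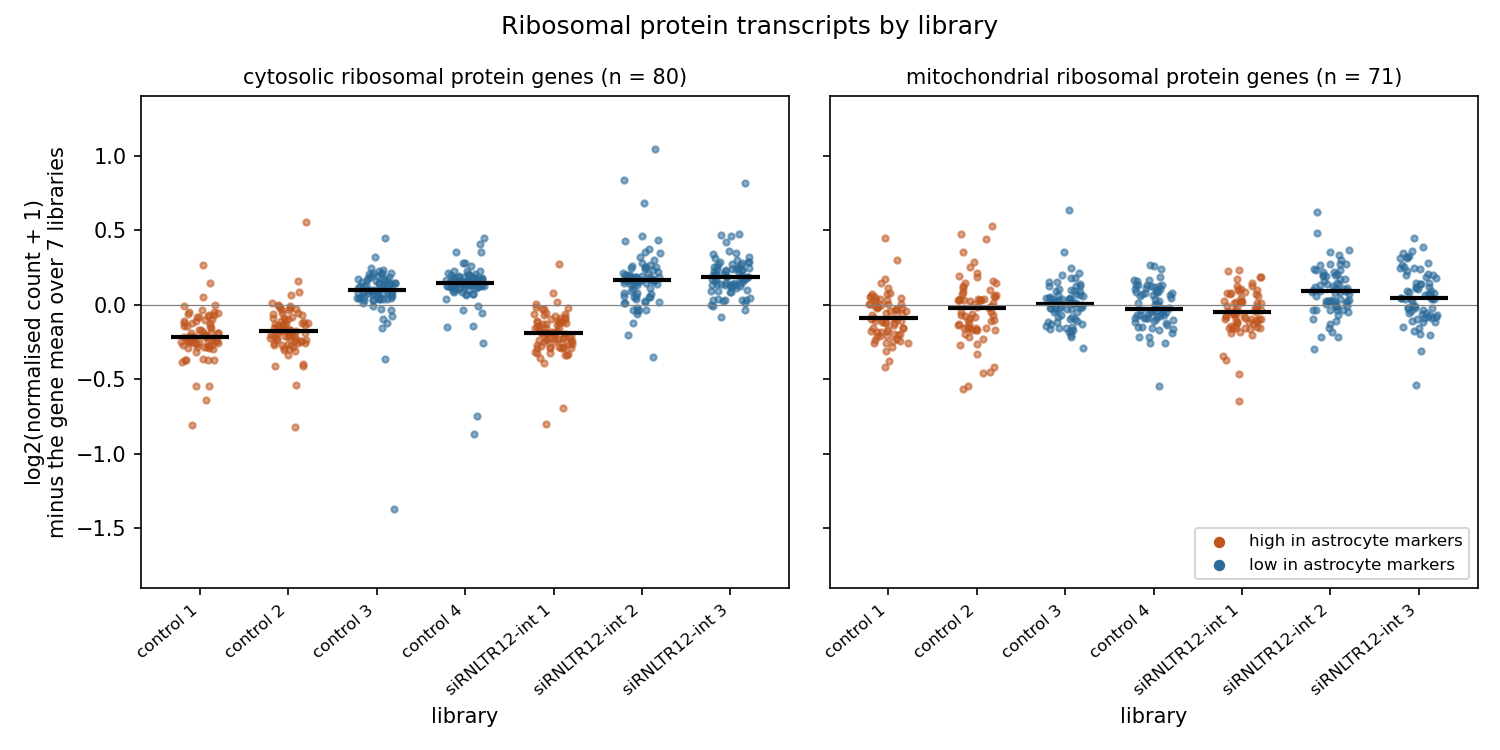
Each point is 1 gene in 1 library, as log2(normalised count + 1) minus that gene's mean over the 7 libraries, and the black bars are medians. Cytosolic genes (left, 80) sit low in the 3 libraries high in astrocyte markers (orange) and high in the other 4 (blue), while mitochondrial genes (right, 71) are centred nearer 0 throughout.

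The share of reads followed the same libraries. Cytosolic members took 0.747%, 0.679%, 0.988% and 0.965% of the reads in controls 1 to 4, and 0.727%, 0.984% and 1.01% with the siRNA. Mitochondrial members took 0.154%, 0.143%, 0.171% and 0.161% in controls and 0.154%, 0.173% and 0.174% after the siRNA. Wilson 95% intervals were at most 0.00404 percentage points to either side and cover counting error only. Controls averaged a cytosolic share of 0.845% ± 0.155 (SD, n = 4) and siRNLTR12-int libraries one of 0.909% ± 0.158 (SD, n = 3), a gap smaller than either SD. For mitochondrial members the averages were 0.157% ± 0.0120 (SD, n = 4) and 0.167% ± 0.0111 (SD, n = 3), also less than 1 SD apart.

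**Figure D3:**
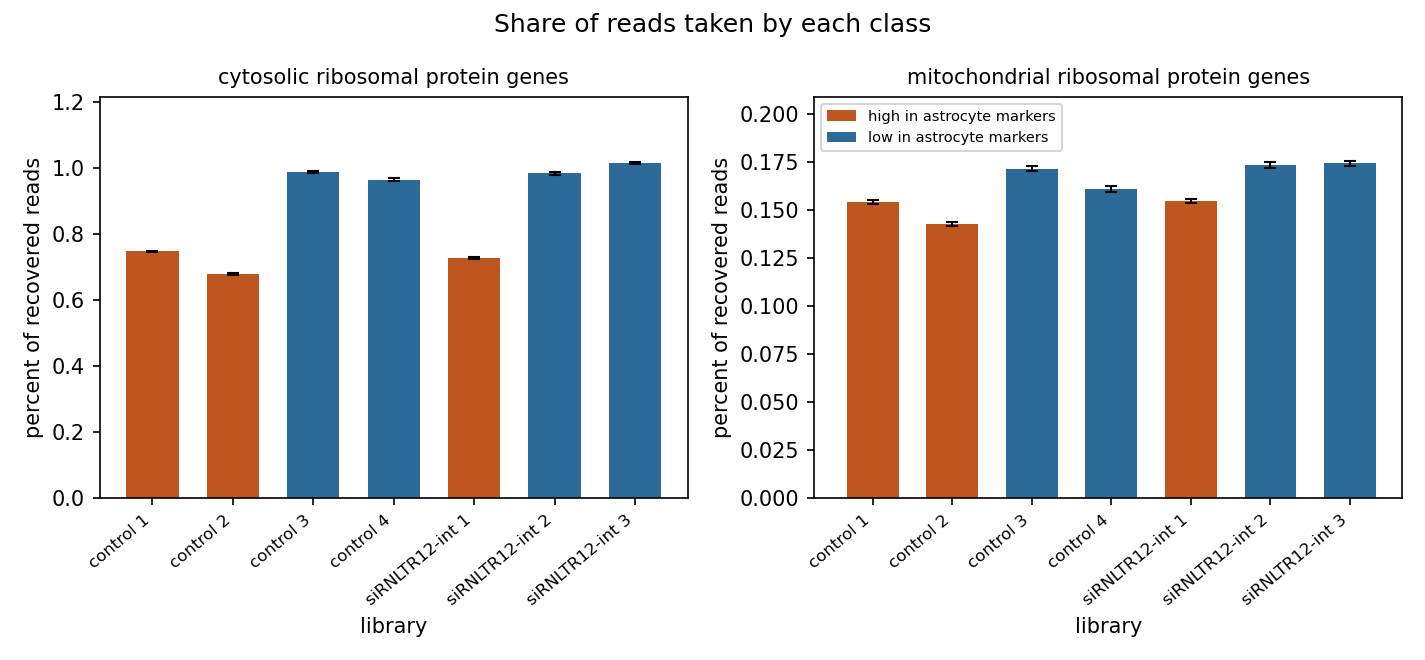
Percent of recovered reads in each library that fell on cytosolic (left) and mitochondrial (right) ribosomal protein genes, with Wilson 95% intervals. Cytosolic bars run from 0.679% to 0.747% in the 3 libraries high in astrocyte markers (orange) and from 0.965% to 1.01% in the other 4 (blue).

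The distance between the classes followed the same split. The mean log2 level of cytosolic members minus that of mitochondrial members was 1.522, 1.518, 1.724 and 1.782 in controls 1 to 4 and 1.505, 1.729 and 1.783 with the siRNA. The size of this gap depends on gene lengths, so only its change between libraries is read here. It averaged 1.64 ± 0.137 (SD, n = 4) in controls and 1.67 ± 0.148 (SD, n = 3) with the siRNA, a difference of 0.04 that was smaller than either SD, and it was 0.24 smaller in the astrocyte-high libraries (1.52 against 1.75). Both cytosolic subunits took part. The median astrocyte-high minus other difference was -0.39 for 50 large-subunit and -0.31 for 30 small-subunit members, while the mitochondrial subunits gave -0.11 and -0.10.

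Among large-subunit members Rpl28 stood at the far end of that shift, with a log2 difference of -0.89. Rpl28, a large-subunit protein, had 2144, 3992, 4699 and 4822 normalised counts in controls and 2155, 5066 and 5031 with the siRNA. Control 1 and siRNLTR12-int 1 were lowest, control 2 stood between them and the other 4, and its siRNA difference was 0.03 ± 0.40 (SE, limma adjusted p = 0.998). Rpl4, a large protein near the exit tunnel for new chains, had 9235, 9384 and 9280 in the astrocyte-high libraries against 12497, 12757, 13626 and 13607. Rpl34 had 382, 404 and 419 against 558, 538, 618 and 605.

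Small-subunit members behaved alike. Rps25 had 3536, 3442, 5224 and 5359 normalised counts in controls and 3635, 5848 and 5825 with the siRNA, so that the astrocyte-high libraries were lower by a log2 of 0.65 and the siRNA groups overlapped. Rps6, the protein that S6 kinases phosphorylate downstream of mTOR, had 5831 to 7002 in the astrocyte-high libraries and 8608 to 9146 in the others (its main row, ENSRNOG00000007663). Rps2, an entry-channel protein, had 17254 to 19995 against 23224 to 25103 (ENSRNOG00000014179). The 16 cytosolic rows whose libraries did not separate this way included the low-count rows of Rpl13a, Rpl21, Rps2 and Rps21, together with Rplp1, Rplp2, Rpl8, Rpl22, Rpl38 and Rpl41.

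A few cytosolic members kept a nearly even level or went the other way. Rpl41, which encodes a very short peptide of the ribosome, had 6491, 7483, 6591 and 7314 in controls and 6179, 6433 and 6563 with the siRNA, and its astrocyte-high minus other difference was -0.0046. Rpl12, at the base of the stalk, was the single member whose astrocyte-high libraries all lay above the rest, at 4239, 3350 and 4267 against 3190 to 3321, so that control 2 stood only just above. Neither has a pyrimidine stretch of at least 8 bases at its annotated start in the sequences printed above, although Rpl12 has a shorter tract there. Across the class the shift was of similar size with and without a stretch of at least 8 bases, and shorter tracts were not told apart. Among members with 1 row and 1 promoter entry, the median shift was -0.30 in 30 with the stretch and -0.33 in 22 without, and 25 and 16 of them separated the libraries.

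The stalk proteins, which recruit elongation factors to the large subunit, differed among themselves. Rplp0, the scaffold of the stalk, had 10970 to 11412 normalised counts in the astrocyte-high libraries and 11951 to 13222 in the others, 1 of the narrowest ranges of the class (SD of 0.09 on the log2 scale). Rplp1 had 1206, 1238, 1332 and 1389 in controls and 1072, 1229 and 1279 with the siRNA. The single Rplp2 row was low, at 57 to 89 in controls and 73, 152 and 93 with the siRNA (log2 0.45 ± 0.31, SE, limma adjusted p = 0.918). The mitochondrial stalk proteins Mrpl10 and Mrpl12 had siRNA differences of 0.12 and 0.13, and Mrpl12 was lower in each astrocyte-high library (842 to 862 against 926 to 1078).

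Rpl8, a protein close to the peptidyl transferase centre, came nearest to a difference between the siRNA groups among cytosolic members. It had 563, 452, 458 and 303 normalised counts in controls and 515, 689 and 705 with the siRNA, so the groups overlapped through control 1 and siRNLTR12-int 1. The log2 difference was 0.54 ± 0.23 (SE, limma adjusted p = 0.791). In the 4 libraries low in astrocyte markers alone, limma called Rpl8 (log2 0.90, adjusted p = 0.0454) and the second Rps6 row, ENSRNOG00000049025 (log2 0.63, adjusted p = 0.0302). That fit called 6.68% of all genes (4.02% higher), so 2 of 80 cytosolic and 0 of 71 mitochondrial members is a share below the background. The second Rps6 row had 1739 to 1919 in controls and 1189, 3099 and 2479 with the siRNA, unlike the main Rps6 row.

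Rpl5 and Rpl11, which with 5S RNA form a particle known to bind the ubiquitin ligase Mdm2, did not differ between siRNA groups beyond their spread. Rpl5 had 6993, 7309, 9430 and 9360 in controls and 7152, 10452 and 10237 with the siRNA (log2 0.16 ± 0.18, SE, limma adjusted p = 0.977). Rpl11 ranged from 5610 to 6358 and from 5633 to 6373 (log2 0.05 ± 0.10, SE, limma adjusted p = 0.988). Mdm2 itself had a log2 difference of 0.11. Of 9 tested members whose human orthologues are known Diamond-Blackfan anaemia genes, Rps19 among them, 0 passed, 6 were positive with a median of 0.06, and all 9 were lower in each astrocyte-high library than in the other 4, as were 64 of the 80 cytosolic members they belong to and 17.1% of all genes.

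Mitochondrial members held the only genes of either class whose siRNA groups did not overlap. There were 2 higher (Mrpl52 and Mrpl13) and 3 lower (Mrps7, Mrpl20 and Mrpl32) of 71, near the backgrounds of 4.09% and 3.59% of all genes, and 0 of 80 cytosolic members in either direction. Mrps7, a small-subunit protein that helps the mitochondrial rRNA fold, had 1034, 1178, 1183 and 1109 normalised counts in controls and 924, 908 and 925 with the siRNA. Its difference was -0.29 ± 0.09 (SE, limma adjusted p = 0.701). Mrpl52, a large-subunit protein, had 1675, 1686, 1696 and 1634 against 1973, 1963 and 1871, a difference of 0.21 ± 0.08 (SE, limma adjusted p = 0.722). Of 9 members whose human orthologues are known mitochondrial disease genes, Mrps7 among them, 0 passed with limma (1 at an unadjusted p under 0.05), 6 were positive and the median was 0.10. Neither Mrps7 nor Mrpl52 passed with any tool run on all 7 libraries.

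**Figure D4:**
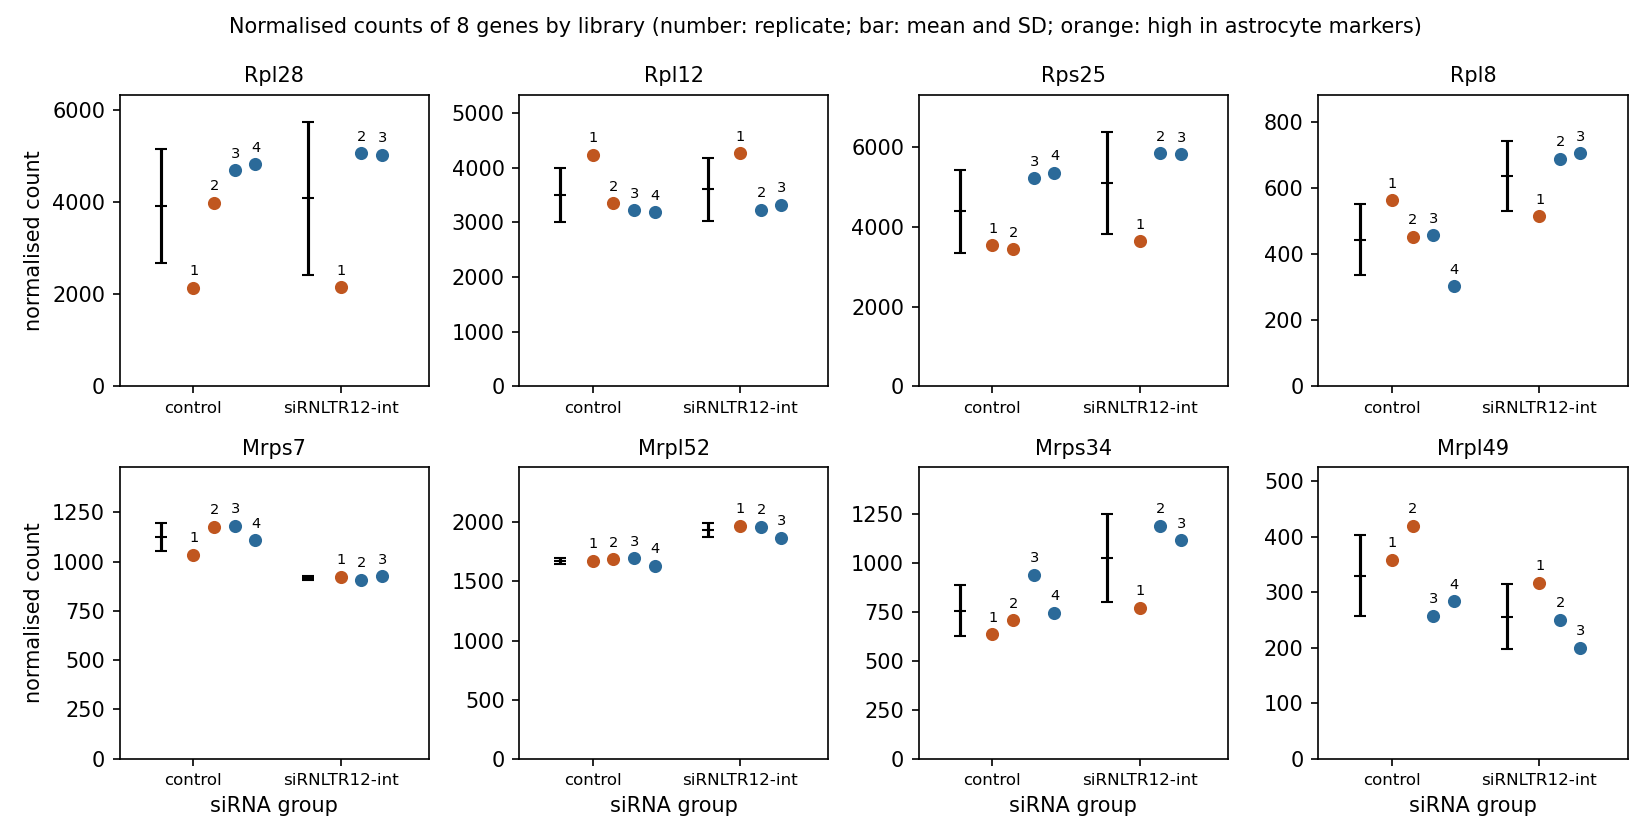
Normalised counts of 8 genes in each library, with the replicate number beside each point and the mean and SD of each siRNA group as bars (control n = 4, siRNLTR12-int n = 3). Rpl28 and Rps25 follow the libraries high in astrocyte markers (orange), Rpl12 lies opposite, and Mrps7 and Mrpl52 separate the siRNA groups without passing the test.

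Apart from Mrps7 (-0.29), the mitochondrial differences of largest size came with overlapping groups. Mrps34, a small-subunit protein, had 635, 705, 939 and 745 in controls and 769, 1190 and 1115 with the siRNA (log2 0.43 ± 0.20, SE, limma adjusted p = 0.826). Mrps6 had 169, 135, 233 and 181 against 203, 260 and 255 (log2 0.43 ± 0.22, SE). Mrps27, Mrpl38, Mrpl23 and Mrps28 followed with 0.34, 0.32, 0.30 and 0.28. At the lower end Mrpl49 had 359, 420, 258 and 284 against 317, 251 and 200 (log2 -0.37 ± 0.23, SE, limma adjusted p = 0.902). Mrpl36, Mrpl51 and Mrpl45 had -0.16, -0.11 and -0.07, also with overlap, while Mrps7, Mrpl20 and Mrpl32 at this end had none. In each of Mrps34, Mrps6 and Mrpl49, siRNLTR12-int 1 lay within the control range.

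Mitochondrial members did not share 1 direction across the astrocyte-high libraries. Mrpl49 was higher there in every library (317 to 420 against 200 to 284), as were Mrpl36, Mrpl44, Mrpl16, Mrpl37, Mrpl3, Mrps21 and Mrps23. Mrpl38, Mrpl19, Mrpl23 and Mrps28 were among the 16 that were lower, with differences of -0.45, -0.48, -0.42 and -0.37. Members in general varied less than cytosolic ones, with a median SD over the 7 libraries of 0.14 against 0.21, beside 0.30 for all genes. With a mean of at least 100 these were 0.14, 0.20 and 0.23. Mrpl45, which tethers the ribosome to the inner membrane, was among the steadiest, at 1634 to 1821 in all 7 libraries.

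Genes that serve the ribosome were read from lists. No gene of these lists passed with limma, edgeR or DESeq2. The cell type marker lists are not among them, and there DESeq2 called 4 lineage markers (0.756% of all genes). At an unadjusted p under 0.05 limma found 6.3% of all genes. In the lists these were 2 of 40 nucleolar genes, 1 of 20 regulators and 1 of 10 cytosolic proteins outside the symbol rule. A list of 7 tested genes around the 5S particle and Mdm2 gave 2, of which Rps27l is also in the list outside the rule. There were 0 among translation factors, mitochondrial translation factors, tRNA ligases, mitochondrial messages and mitochondrial proteins outside that rule. In the nucleolar and pre-ribosome list (RNA polymerase I, snoRNP and assembly factors) 0 of 40 passed limma, 36 were positive and the median was 0.22. In 27 of 40 all astrocyte-high libraries were below the others, against 17.1% of all genes, with a median of -0.38. Npm1, a nucleolar chaperone, had 5839 to 6233 there and 8010 to 8980 elsewhere, and Gar1, an snoRNP protein, had 194 to 241 against 316 to 439. The largest siRNA differences of the list were 0.48 for Gar1 and 0.46 for Nop16, and the lowest were -0.23 for Sbds and -0.14 for Polr1d.

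Among 19 translation factors and other genes known for TOP starts, 0 passed, 15 were positive and the median was 0.07. The astrocyte-high libraries were lower throughout in 11 of them, against 17.1% of all genes, with a median of -0.20. Tpt1, a growth-linked TOP message, had 9705, 4376, 10098 and 10330 normalised counts in controls and 9825, 11228 and 10788 with the siRNA, where control 2 stood apart. Eef1b2, a subunit of the exchange factor for elongation factor 1, was at 1385 to 1633 against 1682 to 1963. The regulators list had 16 of 20 positive and a median of 0.06, and 0 passed. Mycn had 582, 797, 229 and 380 in controls and 209, 214 and 235 with the siRNA (log2 -1.03 ± 0.40, SE, limma adjusted p = 0.755), and Ppargc1a, a coactivator of mitochondrial genes, differed by 0.49.

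On the mitochondrial side, 0 of 32 translation and rRNA-handling factors passed, with 23 positive and a median of 0.09, and 0 of 17 tRNA ligases, with 10 positive and a median of 0.07. Mrm3 and Mrm2, which methylate the mitochondrial rRNA, lay at opposite ends with 0.48 and -0.29. Of the 13 messages that the mitochondrial ribosome reads, 12 were matched by symbol. None passed with limma (0 at an unadjusted p under 0.05), 10 were positive and the median was 0.03. In the astrocyte-high libraries 5 of 12 were higher throughout, against 18.6% of all genes, and 0 lower throughout, against 17.1%, with a median difference of 0.16. The other 7 overlapped, and among them Mt-nd3, Mt-atp6 and Mt-nd1 had differences of -0.11, -0.10 and -0.03. Mt-nd2, a subunit of complex I, had 181196, 194056 and 191720 normalised counts in the 3 libraries against 141988 to 156876 elsewhere.

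Ribosomal proteins and related genes outside the symbol rule did not add a call. Of 10 cytosolic genes tested, Fau not among them, 0 passed, 6 were positive and the median was 0.11. Rps27l, a paralogue of Rps27, had 760, 525, 906 and 765 in controls and 922, 999 and 1115 with the siRNA, without overlap (log2 0.48 ± 0.19, SE, limma adjusted p = 0.778), and Rpl7l1 also had no overlap (log2 0.26), against 4.09% of all genes higher without overlap. Of 8 mitochondrial genes, 0 passed, 6 were positive and the median was 0.10. Ptcd3, a small-subunit component, had 4284 in control 1 and 6685 in siRNLTR12-int 1, and from 3014 to 3341 elsewhere.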

How the data were processed

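The authors deposited a table of normalised counts, a signal for each gene in each library, and a table of their comparison. Salmon, DESeq2 and Rnor_6.0 are named in the submitters' processing notes. In the comparison table the authors give the mean signal, log2 fold changes with standard errors, a test score, p-values and adjusted p-values, per the file headers. Per the labels' protocols, RNA of RIN 9 to 10 was rRNA-depleted and sequenced paired-end with strand kept.

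All values above 0 (100%) were whole multiples of 1 step per library (tolerance 0.01 step), which gave the recovered reads. Limma 3.58.1 (trend, two-sided, Benjamini-Hochberg, threshold 0.05) was run in R 4.3.3 on log2(normalised count + 1) for 18225 genes with a mean of at least 10. Alternatives were pseudocounts 0.25 and 8, other filters, TMM, a replicate block, a block for and a fit within the split in astrocyte markers (at the widest gap in the list's level), each library left out, and edgeR 4.0.16 and DESeq2 1.42.0 on recovered reads. The scripts were tested on simulated data.

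Members and lists were chosen with earlier results of these data known. Genes named by rule were, per class with a mean of at least 100, the 6 highest and 6 lowest differences, the 3 largest SDs, the extremes of mean level, all called members, a fixed set of known roles, and the 2 highest and 2 lowest of each list. Rpl4, Rpl12, Rpl7a, Mrpl52, Mrpl13, Mrpl19, Npm1 and other genes described only for the astrocyte-marker split were chosen after their values were seen. RefSeq sequences (GRCr8) were matched by symbol. A few genes of the classes and lists are not reported here.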

Additional observations from a re-analysis of the deposited data

Results flagged for a closer look

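Among 49 sets of 4 control values, 3 held a control far from the other 3, where chance marks about 1 in 20. Mrpl17, a large-subunit protein of the mitochondrial ribosome, had 3257 normalised counts in control 3 and 2584 to 2682 in the rest. Mrpl36 had 276 in control 2, against 186 to 194. Rpl22 had 85.3 in control 3, against 70.8 to 71.8.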

How the results depend on the processing

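No gene was called with all 7 libraries by limma or edgeR, whereas DESeq2 called 141 genes, with 0 members among them. Within the 4 libraries low in astrocyte markers limma called 1218 genes, including 2 cytosolic members (Rpl8 and the second Rps6 row). Leaving out 1 library at a time gave 0 to 2 genes (2 without control replicate 4, 1 without siRNLTR12-int replicate 2), 0 of them members. The cytosolic median difference ranged from 0.02 to 0.22 with 1 library left out, the lowest without siRNLTR12-int replicate 3 and the highest without siRNLTR12-int replicate 1, and from 0.03 to 0.15 under the other alternatives. The mitochondrial median ranged from 0.03 to 0.13 and from 0.04 to 0.09. The difference in the gap between the classes ranged from -0.02 to 0.12 and from -0.03 to 0.08, so its sign was not stable, and it stayed within 1 SD of the libraries. TMM moved the median of all genes by less than 0.01. Across 782 alternative values for 46 named members, 37 changed sign (15 members) and 2 were called. The count of cytosolic members lower in the astrocyte-high libraries was 64 to 68 with 1 library left out and 65 with TMM. The mitochondrial count was 16 to 27, the 27 being without control replicate 4, and 17 with TMM. Those last counts were alternatives chosen after seeing the data. Same-numbered libraries did not deviate together in every pair (correlations of 0.75, -0.19 and 0.63 for numbers 1, 2 and 3), so the numbers were not taken as pairs. With the replicate block the count of called genes was 0 and the cytosolic and mitochondrial medians were 0.15 and 0.09, and it changed no call. The cause of these changes was not tested. Depth limits the low-count rows, such as Rplp2 and Rps21, most.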
